A study of Mus musculus with 6 samples.

Results

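The genes described here encode protein parts of the spliceosome and the heterogeneous nuclear ribonucleoproteins (hnRNPs) that coat nascent transcripts. They were taken by name: every gene whose single symbol in the probe table starts with Srsf, Sf3a, Sf3b, Snrp or Hnrnp, each read by its brightest probe set over 6 arrays. This gave 47 of 18193 named genes: 10 of the Srsf family, 3 of Sf3a, 6 of Sf3b, 9 of Snrp and 19 of Hnrnp. Of these, 45 passed the filter on dim probe sets and were among the 10824 genes tested. Srsf7, Snrpa and Snrpd1 had no probe set named by them alone and were not analysed here.

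The spliceosome is a set of small nuclear RNA and protein particles that removes introns from pre-mRNA. Proteins of the Snrp genes build or mark these particles, and SF3a and SF3b are parts of the particle that holds the branch site. SR proteins (Srsf genes) mostly favour the use of exons they bind, and hnRNPs often oppose it or act on the packaging, export and stability of RNA. In blood-forming cells this machinery is known because SF3B1 and SRSF2 are recurrently mutated in human myelodysplastic syndromes.

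The study sorted 2 populations of bone marrow stem and progenitor cells from each of 3 adult mice (278, 279 and 281) of mixed 129-B6 background. All mice carried Mx1Cre, an interferon-inducible Cre recombinase, 1 Erg knockdown allele (Ergkd/+) and a Rosa26 YFP reporter (R26Y) that is turned on by Cre. The YFP- cells are labelled Erg-knockdown, with about 40% less of the ETS transcription factor ERG, and the YFP+ cells are labelled Erg-restored, at the wild-type level. Both came from the LSK gate (lineage-negative, Sca-1+, c-Kit+), with 1 Affymetrix array per population and mouse. The sort was on YFP, so effects of the Erg allele, of Cre, of the reporter and of which cells Cre spared cannot be told apart.

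Erg itself did not show the labelled difference. Its brighter probe set read 2970, 2754 and 2706 on the knockdown-labelled arrays of mice 278, 279 and 281, against 2731, 2901 and 2659 on the restored-labelled arrays. The log2 difference was 0.024 ± 0.080 (SE, adjusted p = 0.936, limma), and the exact two-sided sign-flip permutation test gave p = 0.75, where 0.25 is the smallest p that 3 mice allow. With arrays centred on their medians this difference was -0.083, and without mouse 278 it was -0.025. The dimmer probe set read 1820, 1331 and 1570 in knockdown-labelled cells and 1859, 1542 and 1686 in restored-labelled cells (exact sign-flip p = 0.25). The groups are therefore called knockdown-labelled and restored-labelled.

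Values are the deposited linear intensities, and differences (log2 of intensity + 16) take knockdown-labelled minus restored-labelled cells, fitted by limma with the mouse as a block and given ± the standard error (3 arrays per group). Intensity of different genes is not compared, since each probe set has its own response. The restored-labelled array of mouse 279 stood apart from the others: its mean 3' over 5' log2 ratio of the Gapdh and actin control probe sets was 0.706, against 0.470 to 0.539 on the other 5 arrays, and it was the highest array for 38.95% of all genes and the lowest for 24.72%. The 8 LSK and stem cell markers used (Kit, Cd34, Flt3, Slamf1, Procr, Mecom, Hlf and Meis1) all lay above the filter, while Ly6a, the gene of Sca-1, was not analysed here. The summed intensity of the 8 was 38044 to 40688 on knockdown-labelled arrays and 36216 to 36435 on restored-labelled arrays. All but Slamf1 were higher in knockdown-labelled cells within each mouse, and of these only Kit and Mecom did so without overlap of the groups. Slamf1 was mixed, at 546, 224 and 303 in knockdown-labelled cells and 393, 577 and 487 in restored-labelled cells. That of 9 B and plasma cell markers was 15970 to 20395 and 13664 to 14883 in the same order of groups, with Cd79a, Ms4a1, Ebf1 and Pax5 below the filter. Mzb1, Sdc1 and Jchain, which mark plasma cells, were higher in knockdown-labelled cells of every mouse. Xbp1, of the same list, was mixed, at 4670, 4890 and 3955 in knockdown-labelled cells and 4583, 4770 and 4645 in restored-labelled cells. The B-cell gene Cd79b read 2580, 2321 and 2327 in knockdown-labelled cells and 2709, 2456 and 2632 in restored-labelled cells. The megakaryocyte sum was 9881, 10252 and 9116 in knockdown-labelled cells and 9927, 13251 and 12517 in restored-labelled cells. Of its 8 genes, Itga2b, Gp1bb, Gp5, Vwf and Treml1 were lower without overlap, and Pf4 was lower within each mouse. Ppbp read 1064, 1446 and 896 in knockdown-labelled cells, against 743, 851.5 and 953 in restored-labelled cells. Gp9 read 1473, 1392 and 1418 in knockdown-labelled cells, against 1281, 1575 and 1716 in restored-labelled cells. The mast cell sum was 5222, 4903 and 4913 in knockdown-labelled cells and 6636, 5454 and 4929 in restored-labelled cells. The megakaryocyte and mast cell sums were thus both lower in knockdown-labelled cells within each mouse, but both overlapped between the groups. In mouse 281 the mast cell sums were nearly level. Of the mast cell genes, Cpa3 and Cma1, the latter below the filter, were lower within each mouse. Mcpt8, Ms4a2 and Fcer1a were mixed. The sums of neutrophil, macrophage, T and NK, and erythroid markers also overlapped between the groups. Of the macrophage genes, Csf1r and C1qb, and C1qa and C1qc below the filter, were lower in knockdown-labelled cells within each mouse. C1qb read 115, 214 and 116 in knockdown-labelled cells and 398, 908 and 170 in restored-labelled cells. Cd68, Adgre1, Vcam1 and Lyz2 were mixed. The part of these shifts in the results below was not tested. In such bulk samples, fewer cells of a type and less RNA per cell cannot be told apart.

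No splicing gene passed the test, and the intervals of most were narrow. None of the 45 tested genes reached an adjusted p of 0.05 in limma with Benjamini-Hochberg adjustment, where 0 of all 10824 genes did, and none reached an unadjusted p of 0.05, where 5.85% of all genes did (3.97% higher and 1.88% lower). The smallest unadjusted p was 0.112 (limma, adjusted p = 0.770), for Srsf10. In a fit with trend and robust settings, 2 genes, Hnrnpu and Hnrnpk, were below 0.05 unadjusted on the positive side, where 4.53% of all genes were. The 95% interval lay within 1.5-fold in either direction for 44 of the 45 genes (97.8%, against 74.8% of all genes tested) and within 1.25-fold for 37 (82.2%, against 30.7%). The range over the 6 arrays had a median of 0.15 log2 units for these genes and 0.41 for all genes tested. Of the 7864 genes at least as bright as the dimmest of the 45, 84.6% had intervals within 1.5-fold and 38.6% within 1.25-fold, and the median range was 0.33. That floor was set by Hnrnpl, with a mean of 828, while the next dimmest, Sf3b4, had 2233. The 7864 genes are thus not matched to the 45 in brightness, and the part of brightness in the narrow intervals was not tested.

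The small differences sorted by family. All 45 genes had a median difference of 0.031, with 27 positive (60.0%) and 18 negative, beside -0.00015 and 49.95% positive for all genes tested. With arrays centred on their medians 6 of the 45 were positive, where 25.0% of all genes were. Centring moved the median of all genes to -0.107 and that of the 45 to -0.076. In both scalings 27 of the 45 lay above the median of all genes, so only the share above 0 changed sides. The median was 0.053 for Srsf (8 of 9 positive) and 0.049 for Hnrnp (15 of 19 positive), but -0.054 (1 of 9) and -0.058 (4 of 19) with centred arrays, where all genes shifted to -0.107. It was -0.034 for Snrp (1 of 8 positive), -0.026 for Sf3b (2 of 6) and -0.060 for Sf3a (1 of 3). Of the 28 SR and hnRNP genes 23 were positive (82.1%), and of the 17 particle protein genes (Snrp, Sf3a and Sf3b) 4 were (23.5%), but 1 of the 17 with centred arrays. These counts describe the lists and were not tested.

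**Figure D1:**
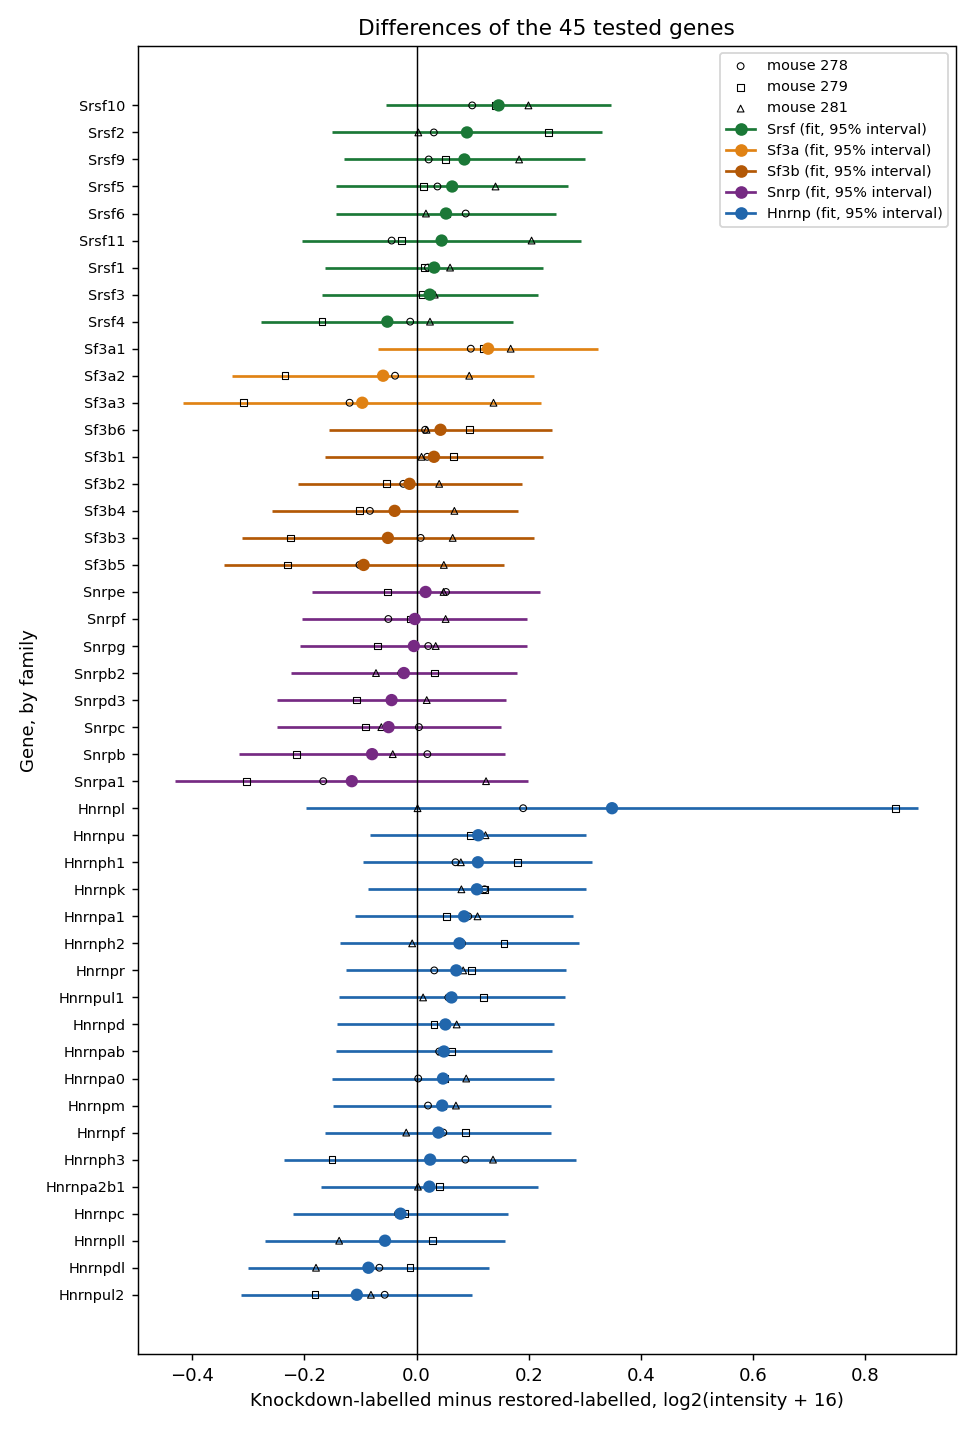
Knockdown-labelled minus restored-labelled difference (log2 of intensity + 16) of the 45 tested genes by family. Filled points are the limma fit with the mouse as a block, bars its 95% intervals and open symbols the single mice. Every interval includes 0, and Hnrnpl, with 0.85 in mouse 279, has the widest.

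The medians of the particle protein genes differed between mice, as did those of all genes. All genes tested had medians of 0.031, -0.044 and 0.032 in mice 278, 279 and 281. In mouse 279 the median was -0.091 for the 17 particle genes and 0.051 for the 28 SR and hnRNP genes. In mouse 278 the medians were -0.024 and 0.034, and in mouse 281 they were 0.048 and 0.052. The particle genes thus lay below the median of all genes in mice 278 and 279 and above it in mouse 281. The restored-labelled array of mouse 279 was the highest of the 6 arrays for 12 of the 17 particle genes and for 4 of the 28 SR and hnRNP genes. With 5 arrays, leaving that one out and dropping the mouse term, 8 of the 17 particle genes were positive, among them 2 of 8 Snrp genes, where 59.2% of all genes were positive with a median of 0.024. The family medians were then 0.066 for Sf3a, 0.011 for Sf3b and -0.015 for Snrp. Those of Srsf and Hnrnp were 0.045 and 0.050, with 8 of 9 and 15 of 19 genes positive. The part of the 3' over 5' ratio of that array in these values was not tested.

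**Figure D2:**
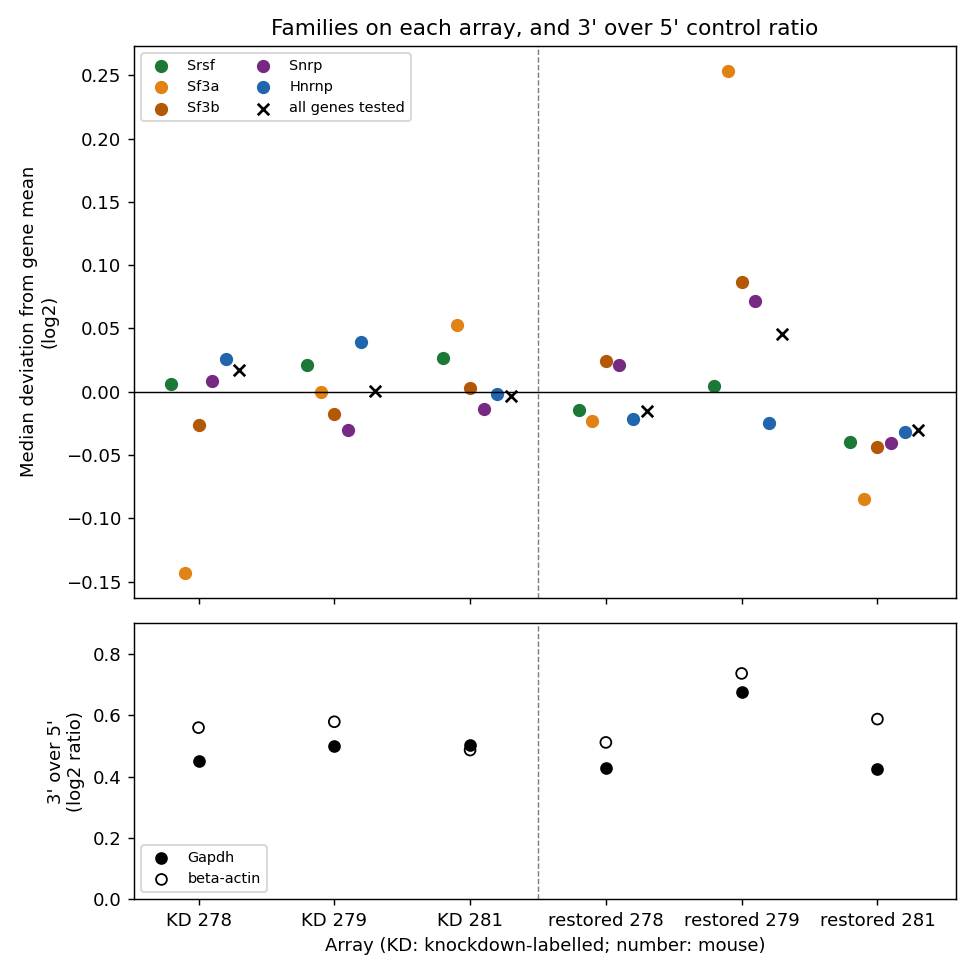
Upper panel: median deviation of each family's genes from their own means (log2 of intensity + 16) on each array, with all 10824 genes as crosses. Lower panel: 3' over 5' log2 ratio of the Gapdh and beta-actin controls. Sf3a, Sf3b and Snrp stand highest on the restored-labelled array of mouse 279 (0.25, 0.087 and 0.072), which also has the highest ratios.

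As deposited, more of the genes than the background lay on the positive side in all 3 animals, by small amounts. Shares over the 3 mice were not computed with centred arrays. There the fitted difference, another measure, was positive for 6 of the 45 genes and for 25.0% of all genes. In either scaling 27 of the 45 fitted differences lay above the median of all genes. A positive difference in all 3 mice was found for 22 of the 45 genes (48.9%), where 19.8% of all genes had one, and a negative one for 3 (6.67%), where 12.4% did. For 8 genes (17.8%) every knockdown-labelled array lay above every restored-labelled array, where 10.1% of all genes did, and for 0 genes below, where 5.1% did. The 8 are Srsf10, Hnrnpu, Hnrnpk, Hnrnpa1, Hnrnpr, Hnrnpul1, Hnrnpd and Hnrnpa2b1. With centred arrays 3 of the 8, Srsf10, Hnrnpu and Hnrnpk, had a positive difference. These shares carry no test. The LSK marker sums given above do not overlap between the groups either, and their part in these counts was not tested.

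**Figure D3:**
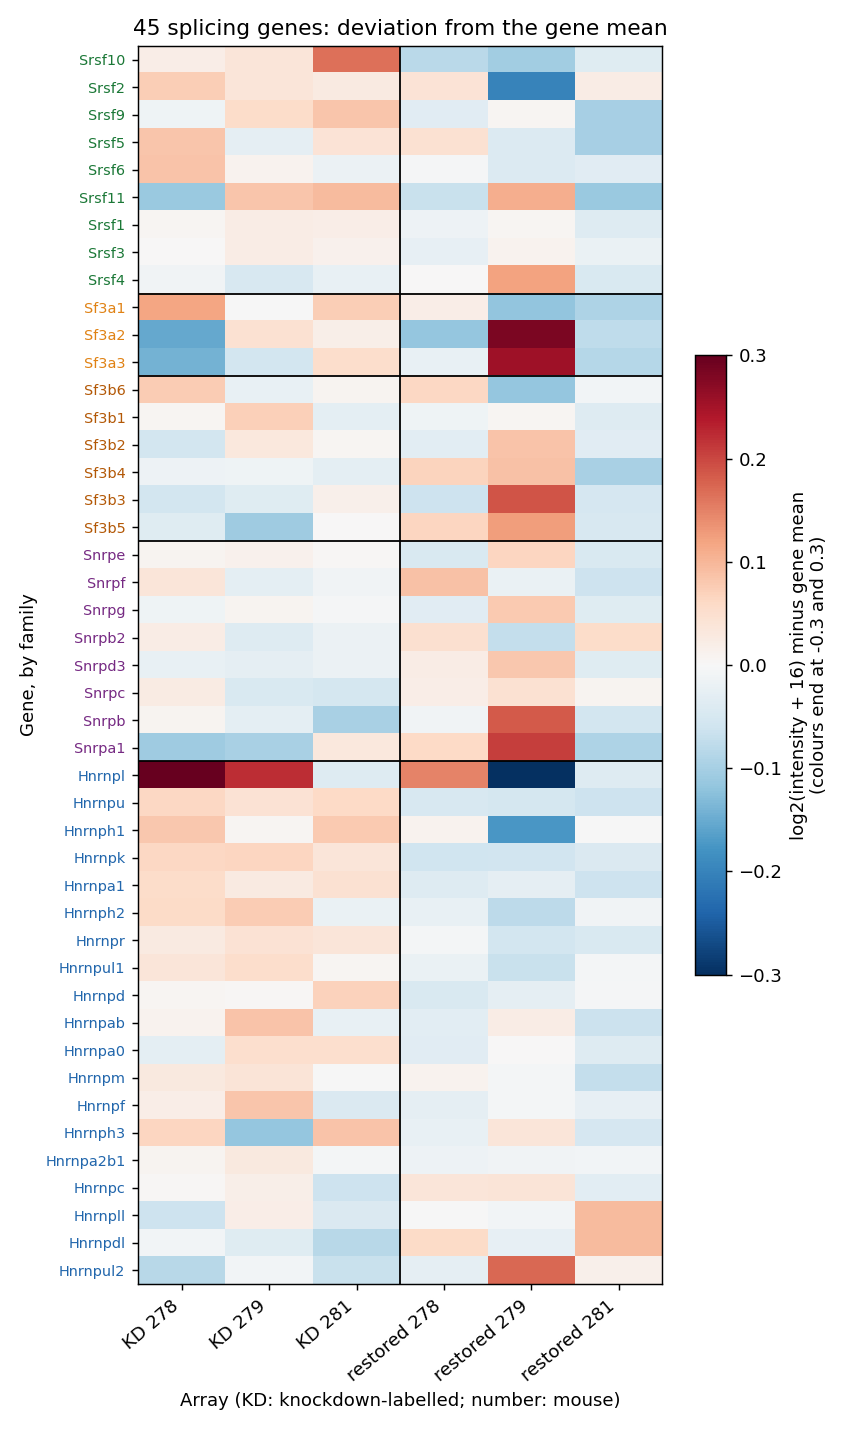
Deviation of each gene from its own mean over 6 arrays (log2 of intensity + 16), genes by family, knockdown-labelled arrays left of the line and restored-labelled arrays right of it. Red is above the gene's mean. For 23 of 28 SR and hnRNP genes the left side is higher on average, and 12 of 17 Sf3a, Sf3b and Snrp genes are highest on the restored-labelled array of mouse 279.

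Among the SR proteins, Srsf10, which acts as a splicing repressor once it is dephosphorylated, had the smallest p. It read 3924, 3972 and 4341 in knockdown-labelled cells of mice 278, 279 and 281, against 3662, 3602 and 3778 in restored-labelled cells. The groups did not overlap, and the difference was 0.15 ± 0.072 (a fold of 1.11, adjusted p = 0.770, limma), but 0.040 with centred arrays and 0.058 as the mean over probe sets. The 3 other probe sets of the gene gave 0.16, -0.076 and -0.0001. Srsf2, the speckle protein SC35, read 6000, 5846 and 5809 in knockdown-labelled cells, against 5873, 4962 and 5797 in restored-labelled cells. Only the restored-labelled array of mouse 279 lay clearly apart, and the difference of 0.090 ± 0.086 was 0.012 with 5 arrays and no mouse term, and -0.017 with centred arrays.

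Srsf1, the founding member of the family, and Srsf3, its smallest member, were almost level at their brightest probe sets. Srsf1 read 10898, 11016 and 11007 in knockdown-labelled cells and 10746, 10907 and 10560 in restored-labelled cells, a difference of 0.031 ± 0.070 (-0.075 with centred arrays). The next brightest Srsf1 probe sets gave 0.086 and 0.089, both without overlap, then 0.0015 and 0.018, both with overlap. Dim ones gave 0.42 and 0.13 with overlap, and the mean over Srsf1 probe sets was 0.111. Srsf3 read 9237, 9360 and 9301 in knockdown-labelled cells and 9064, 9290 and 9094 in restored-labelled cells, a difference of 0.024 ± 0.069 (-0.083 with centred arrays). At the brightest probe set of both genes, the highest restored-labelled array overlapped the knockdown-labelled range. The intervals there ran from -0.16 to 0.23 for Srsf1 and from -0.17 to 0.22 for Srsf3. Srsf5 read 5777, 5351 and 5611 in knockdown-labelled cells, against 5630, 5305 and 5088 in restored-labelled cells, with a difference of 0.063 ± 0.074 (-0.043 with centred arrays). The other tested SR genes gave 0.085 (Srsf9), 0.053 (Srsf6), 0.045 (Srsf11) and -0.052 (Srsf4). Srsf12 was dim, at 38.5, 36.6 and 37.8 in knockdown-labelled cells and 26.8, 26.9 and 35.2 in restored-labelled cells, below the filter intensity of 143.5.

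SF3a consists of the proteins of Sf3a1, Sf3a2 and Sf3a3, which join the U2 particle before it binds the branch site. Sf3a1 read 4186, 3857 and 4062 in knockdown-labelled cells, against 3913, 3552 and 3614 in restored-labelled cells. It was higher within each mouse, although the groups overlapped, with a difference of 0.13 ± 0.070 (adjusted p = 0.770, limma), but 0.021 with centred arrays and 0.066 as the mean over probe sets. The 2 other probe sets of the gene above the filter gave -0.14 and 0.21. Sf3a2 read 4705, 5409 and 5299 in knockdown-labelled cells and 4833, 6367 and 4964 in restored-labelled cells. Its difference was -0.060 ± 0.097, but 0.066 with 5 arrays and no mouse term, and the restored-labelled array of mouse 279 alone was far above the rest. Sf3a3 likewise differed in sign between mice, at -0.12, -0.31 and 0.14 in mice 278, 279 and 281.

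The promoters of the 3 SF3a genes are shown because ERG is an ETS factor and all 3 windows hold the ETS core searched for. They are the 100 bases before the gene start on the gene's strand, from RefSeq with build GRCm38.p6, and capitals mark CCGGAAG or its reverse complement CTTCCGG. Srsf5, which holds 2 matches, and Srsf10 and Hnrnpu, which hold none in their 300-base windows, are given beside them.
Sf3a1, chr11:4160254-4160353, + strand: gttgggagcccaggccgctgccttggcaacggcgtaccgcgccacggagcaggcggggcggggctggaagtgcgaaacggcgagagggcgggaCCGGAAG
Sf3a2, chr10:80798635-80798734, + strand: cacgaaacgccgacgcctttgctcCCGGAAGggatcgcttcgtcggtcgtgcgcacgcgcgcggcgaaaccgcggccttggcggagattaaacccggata
Sf3a3, chr4:124714761-124714860, + strand: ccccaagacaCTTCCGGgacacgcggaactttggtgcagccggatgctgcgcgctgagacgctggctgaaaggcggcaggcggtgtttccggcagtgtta
Srsf5, chr12:80945399-80945498, + strand: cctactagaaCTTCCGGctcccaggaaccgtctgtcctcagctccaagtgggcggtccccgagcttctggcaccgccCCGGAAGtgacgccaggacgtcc
Srsf10, chr4:135855971-135856070, + strand: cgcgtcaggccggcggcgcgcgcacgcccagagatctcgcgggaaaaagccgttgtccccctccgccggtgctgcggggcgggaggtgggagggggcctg
Hnrnpu, chr1:178337816-178337915, - strand: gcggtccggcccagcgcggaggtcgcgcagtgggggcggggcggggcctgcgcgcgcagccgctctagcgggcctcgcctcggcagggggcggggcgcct

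The letters were commoner in promoters of the particle protein genes than in those of hnRNP genes. RefSeq promoter windows (250 bases before to 50 after the start) matched 42 of the 47 genes. A match on either strand lay in at least 1 window of 10 of 15 particle protein genes and of 2 of 17 Hnrnp genes, Hnrnpd and Hnrnpf. It lay in windows of 3 of 10 Srsf genes: Srsf4, Srsf5 and Srsf11. Of all genes tested with a window, 21.2% held it, and of every gene with a promoter window 9.93%. By window, the shares were 34.5% of the genes' 58 windows, 18.1% of those of all genes tested and 8.86% of all windows. The match is a description of sequence and not a binding site. Of the 8 genes whose groups did not overlap, 1, Hnrnpd, held a match, and 7 belong to the Hnrnp family with its 2 of 17. The 3 SF3a genes, shown here for their match, lay on both sides of 0. A link between the match and the differences was not tested.

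Sf3b1, whose protein contacts the branch site, read 6191, 6478 and 6039 in knockdown-labelled cells and 6110, 6191 and 6002 in restored-labelled cells. The groups overlapped throughout, and the difference of 0.031 ± 0.070 was -0.076 with centred arrays. Its 95% interval, -0.16 to 0.23, is narrow, yet 3 other probe sets above the filter gave -0.090, -0.14 and 0.16. Sf3b6, which encodes another SF3b subunit, gave 0.043 ± 0.071. The remaining subunits gave -0.013 (Sf3b2), -0.039 (Sf3b4), -0.051 (Sf3b3) and -0.094 (Sf3b5), each lower in mouse 279 and higher in mouse 281.

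The Snrp genes for the Sm ring, which sits on the U1, U2, U4 and U5 RNAs, differed by less than their error. Snrpb, which encodes the SmB proteins, read 7412, 7212 and 6883 in knockdown-labelled cells, against 7314, 8373 and 7090 in restored-labelled cells. Mouse 279's restored-labelled value lay above all others, and the difference was -0.079 ± 0.085, or -0.0070 with 5 arrays and no mouse term. The other Sm genes gave 0.016 (Snrpe), -0.0032 (Snrpf), -0.0048 (Snrpg) and -0.045 (Snrpd3). On knockdown-labelled arrays Snrpd3 ran from 11307 to 11384 and Snrpe from 10448 to 10520, and on restored-labelled arrays from 11242 to 12184 and from 10105 to 10909. Snrpc, specific to the U1 particle, gave -0.050, and Snrpb2 and Snrpa1, specific to U2, gave -0.023 and -0.12. Snrpa1 had the most negative difference of all 45 genes and went both ways between mice, at -0.17, -0.30 and 0.12 (278, 279 and 281).

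Snrpn, the imprinted paralog of Snrpb known from brain, was dim here at the only probe set named by it alone. It read 31.8, 33.2 and 43.6 in knockdown-labelled cells, against 26.6, 14.7 and 20.9 in restored-labelled cells. The groups did not overlap, but all values lay far below the filter intensity of 143.5. With no filter its difference was 0.51 at an unadjusted p of 0.0276 (limma), where 3.75% of all genes were called on that side.

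Among hnRNPs, Hnrnpu, Hnrnpk and Hnrnpa1 had gaps between the groups wider than the range within either group. Hnrnpu, a nuclear scaffold protein that binds RNA and chromatin, read 11299, 11155 and 11285 in knockdown-labelled cells and 10464, 10434 and 10362 in restored-labelled cells. Its difference was 0.11 ± 0.069 (a fold of 1.08, adjusted p = 0.770, limma), at 0.11, 0.096 and 0.12 in the 3 mice. The 4 other probe sets of Hnrnpu gave 0.019, -0.017, -0.0031 and -0.23, so their mean with the brightest was -0.024. Hnrnpk, which binds cytosine-rich RNA, read 10442, 10459 and 10268 in knockdown-labelled cells and 9598, 9615 and 9714 in restored-labelled cells. Its difference was 0.11 ± 0.070 (adjusted p = 0.772, limma) but 0.00064 with centred arrays, where Hnrnpu gave 0.0031. Other Hnrnpk probe sets gave 0.111 and 0.1055, both without overlap, and 0.075, with overlap. The mean over Hnrnpk probe sets was 0.0998.

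Hnrnpa1 and Hnrnpa2b1, core proteins of the hnRNP particle that often silence exons, also had groups that did not overlap at their brightest probe sets. Other probe sets of Hnrnpa1 gave 0.091, without overlap, and -0.13, with overlap. Hnrnpa1 read 8103, 7947 and 8060 in knockdown-labelled cells, against 7600, 7660 and 7474 in restored-labelled cells, a difference of 0.085 ± 0.070 (-0.022 with centred arrays). Hnrnpa2b1 read 9242, 9379 and 9154 in knockdown-labelled cells and 9084, 9115 and 9139 in restored-labelled cells, where the gap between the groups was far smaller than their ranges. Its difference was 0.023 ± 0.069 (-0.084 with centred arrays), while other Hnrnpa2b1 probe sets gave -0.017, -0.00058 and -0.0065, all with overlap. Hnrnpd, also called AUF1, which binds AU-rich elements of mRNA, read 4968, 4960 and 5192 in knockdown-labelled cells and 4792, 4854 and 4940 in restored-labelled cells. The groups stood just apart, at 0.051 ± 0.069 (-0.055 with centred arrays). Hnrnpr and Hnrnpul1, the remaining hnRNP genes without overlap, gave 0.071 and 0.062 (-0.036 and -0.044 with centred arrays).

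Of the 19 hnRNP genes, 4 lay on the negative side. Hnrnpul2, a relative of Hnrnpu, read 5522, 5818 and 5588 in knockdown-labelled cells, against 5745, 6600 and 5914 in restored-labelled cells. It was lower within each mouse, at -0.11 ± 0.074 (adjusted p = 0.775, limma). Its other probe set gave the opposite, at 0.14, with every knockdown-labelled array above every restored-labelled one. Hnrnpdl, the paralog of Hnrnpd, read 5106, 5004 and 4842 in knockdown-labelled cells, against 5347, 5046 and 5486 in restored-labelled cells, and gave -0.086 ± 0.077 with overlapping groups. Hnrnpc, which binds uridine tracts, read 7265, 7335 and 6942 in knockdown-labelled cells and 7435, 7448 and 7092 in restored-labelled cells. Its groups overlapped and its difference was -0.029 ± 0.069, at -0.033, -0.022 and -0.031 in the 3 mice. Hnrnpll, known for silencing variable exons of CD45 in lymphocytes, gave -0.056 ± 0.077.

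Hnrnpl, which binds CA repeats, had the widest range over the arrays, 0.97 log2 units. It read 1029, 947 and 789 in knockdown-labelled cells, against 900, 517 and 788 in restored-labelled cells. The low value of the restored-labelled array of mouse 279 lay far below the other 5. The difference was 0.35 ± 0.20 (adjusted p = 0.770, limma) with all arrays and 0.096 without mouse 279. Of the 45 genes it was the only one whose interval, -0.20 to 0.90, reached beyond 1.5-fold. Of the other hnRNP genes, Hnrnph1 and Hnrnph2, which bind runs of G, gave 0.11 and 0.076, and Hnrnpf and Hnrnph3 of the same group gave 0.039 and 0.024. Hnrnpab, Hnrnpa0 and Hnrnpm lay between 0.046 and 0.049.

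Other probe sets of the same genes often disagreed with the brightest one. The 47 genes had 139 probe sets, of which 128 lay above the filter. Of 34 genes with more than 1 such probe set, 19 had differences of both signs. In a fit of all 19338 named probe sets above the filter, 1 of the 128 was below an unadjusted p of 0.05 on the positive side, where 4.29% of all were, and 0 on the negative side, where 1.58% were. That probe set belongs to Srsf2 and read 209, 269 and 215 in knockdown-labelled cells, against 101.5, 149 and 155.5 in restored-labelled cells. The groups did not overlap, with a difference of 0.72 ± 0.13 (unadjusted p = 0.00526, adjusted p = 0.801, limma), while the 3 brighter Srsf2 probe sets gave 0.090, 0.065 and 0.0056. It is close to the filter intensity of 143.5, and the part of the gene it reads was not analysed here. A dim Srsf1 probe set gave 0.42 ± 0.21 and read 427.5 on the restored-labelled array of mouse 279, against 806 to 1219 on the other 5 arrays.

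**Figure D4:**
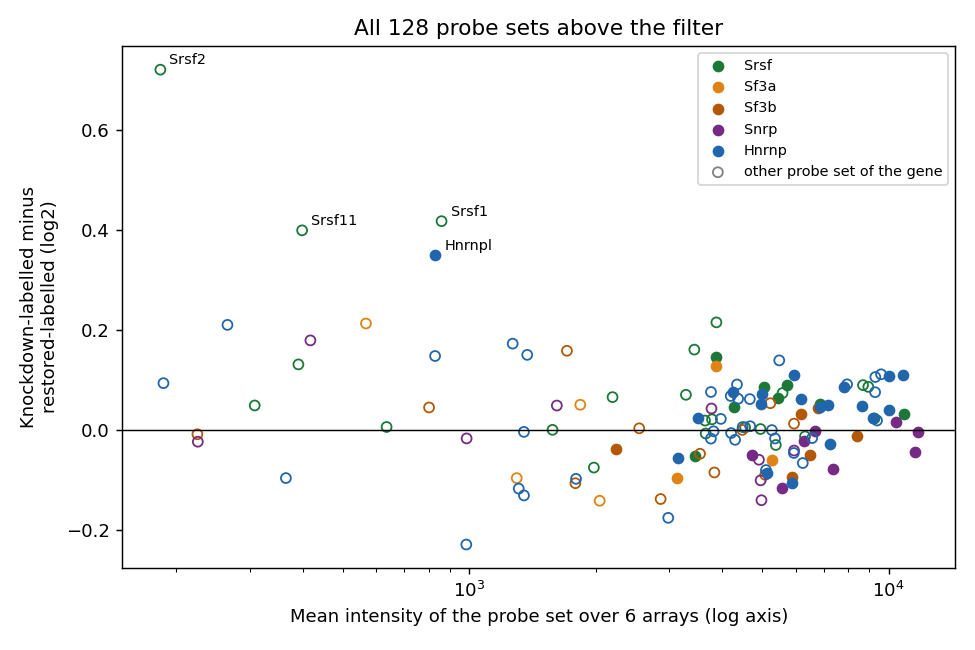
Knockdown-labelled minus restored-labelled difference (log2 of intensity + 16) of the 128 probe sets above the filter against their mean intensity on a log axis. Filled points are the probe set used for each gene and open points its others. Bright probe sets lie close to 0, and the largest difference, 0.72, is a dim probe set of Srsf2.

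Other genes of the splicing machinery were also examined, from a list of their own. Of 121 listed genes, among them the core scaffold gene Prpf8, the branch site helper genes U2af1 and U2af2, SR protein kinases and assembly factors, 109 were tested. Their median difference was -0.0024, with 53 positive (48.6%) and 56 negative, beside -0.00015 and 49.95% positive for all genes tested. Of the 109, 0 reached an unadjusted p of 0.05 in limma, where 5.85% of all genes did. On the positive side the smallest p belonged to Crnkl1, a factor of the catalytic complex (0.23 ± 0.11), Cwc22, which recruits the exon junction complex (0.27 ± 0.13), and Elavl1, the HuR stability factor (0.15 ± 0.077). On the negative side they belonged to Clk2, a kinase of SR proteins (-0.26 ± 0.12), Sart1 of the tri-snRNP (-0.34 ± 0.16) and the helicase gene Dhx16 (-0.17 ± 0.083). Sart1 read 1894, 1958 and 2225 in knockdown-labelled cells, against 2172, 3308 and 2351 in restored-labelled cells, so the restored-labelled array of mouse 279 again lay apart.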

How the data were processed

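A Qiagen kit gave the RNA and NuGEN Ovation V2 amplified it for Affymetrix mouse arrays, per the labels' protocols. The deposited values are linear intensities per probe set, summarized by the authors with a method not given in the sources used here, and no depth lies behind them, so the number of arrays limits the precision. Of 45101 probe sets, 64 controls were left out. The probe table, with older annotation, names 34945 by 1 symbol, 932 by several and leaves 9160 unnamed. Intensities were taken to log2(value + 16), which understates differences of dim genes. The filter kept probe sets whose mean log2 value was at least the median of all (about 143.5 in intensity), and the brightest named one stood for each gene. All 47 symbols matched RefSeq (GRCm38.p6), from which the promoters come.

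limma 3.58.1 in R 4.3.3 was fitted over all 10824 genes with the mouse as a block, with Benjamini-Hochberg adjustment over all genes and a threshold of 0.05. The fit was tested on simulated data. The block follows the labels, which give both populations of a mouse. Same-mouse correlations of deviations were 0.449, -0.166 and -0.291 for mice 278, 279 and 281. Figures were drawn with matplotlib 3.10.9. The genes and lists were chosen with earlier results of these data known. Values are given for Erg, for genes of known parts, for up to 5 genes on each side with the smallest p and the same sign in 3 mice, for the 2 with the widest range (Hnrnpl and Sf3a2) and for the 3 other splicing genes on each side with the smallest p. Alternatives were no block, quantile normalization, centring, other filters, the mean over probe sets, trend and robust settings, array weights, added values of 1 and 64, and leaving out each mouse. Added after seeing the data was a 5-array fit with no mouse term that drops mouse 279's restored-labelled array.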

Additional observations from a re-analysis of the deposited data

How the results depend on the processing

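No gene of the whole table and no splicing gene passed the adjusted threshold under any of the 14 alternatives. The count of splicing genes at an unadjusted p below 0.05 was 0, but 1 with no filter (Snrpn) and 2 with trend and robust settings (Hnrnpu and Hnrnpk). With no replicate block the count was also 0 and the median of the splicing genes stayed at 0.031. The block changed no call. With arrays centred on their medians all genes shifted to -0.107, and the medians were -0.0758 for the splicing genes, -0.0543 for Srsf, -0.133 for Sf3b, -0.14 for Snrp, -0.058 for Hnrnp and -0.109 for the other splicing genes, so that Srsf and Hnrnp stayed above all genes and Snrp and Sf3b below. In that setting 21 of 45 genes turned sign, among them Hnrnpa1 (-0.0222), Hnrnpa2b1 (-0.084), Hnrnpd (-0.0554), Sf3b1 (-0.0758), Srsf1 (-0.0754), Srsf2 (-0.017), Srsf3 (-0.0833) and Srsf5 (-0.0434), and Erg stood at -0.0832. As the mean over probe sets, Hnrnp had a median of 0.0424, and 6 of 45 signs turned, among them Hnrnpa2b1 (-0.000245), Hnrnpc (0.0163), Hnrnpu (-0.0242), Hnrnpul2 (0.0161) and Sf3b1 (-0.00984), while Erg gave -0.0453. Centring subtracts the same value from every gene of an array, so it moved every difference by the same amount. The cause of the changes with the mean over probe sets was not tested. Leaving out each mouse gave medians of 0.0248 to 0.0766 for Srsf and 0.0453 to 0.0582 for Hnrnp. It gave -0.0247 to 0.0729 for Erg and -0.137 to 0.0277 for Sf3a2, which was 0.0661 with 5 arrays. Quantile normalization turned 0 of the 45 signs. Arrays carry no depth here, and dim probe sets such as those of Snrpn and Srsf12 are limited by their signal over background.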
